A study of Homo sapiens with 21 samples.

Results

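Autophagy is the route by which a cell wraps part of its cytoplasm in a double membrane, the autophagosome, and delivers it to the lysosome for breakdown. ULK1 is the kinase that starts the process, ATG9A travels in vesicles that seed the membrane, ATG14 directs the lipid kinase that makes phosphatidylinositol 3-phosphate there, WIPI1 binds that lipid and ATG2A carries lipids into the growing membrane. MAP1LC3B, GABARAPL1 and GABARAPL2 belong to the ATG8 family, small proteins that are attached to the membrane, NBR1 is a receptor that ties cargo to them, and TFEB is a transcription factor for autophagy and lysosome genes. The RNA levels of these 10 genes, of 58735 genes in the deposited table, were followed across all 7 groups. They were chosen by symbol with earlier results of these data known, so their counts beside shares of all genes are not independent evidence. Each symbol matched 1 gene. All 10 were among the 14686 genes tested, those whose FPKM averaged 0.5 or more across the 21 libraries. FPKM is a fragment count divided by the length of the gene and the size of the library.

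The cells were MDA-MB-453, a human breast cancer cell line, labelled wild type, with 3 RNA-seq libraries in each group. The groups were control (labelled as untreated), calcium (10 mM), cadmium (10 μM), GSK4716 (5 μM, used as an agonist of the orphan nuclear receptor ESRRB), DES (diethylstilbestrol, 10 μM, used as an antagonist of ESRRB), DES with calcium and DES with cadmium. Treatments lasted 24 h, and in the combined groups DES was added 3 h before the metal, so time with DES and the metal cannot be told apart there. Before treatment all cells were held in charcoal-stripped serum. Calcium and GSK4716 were given without serum and cadmium in a low concentration of that serum, GSK4716 and DES were dissolved in ethanol, and a single control group is given, so medium or solvent cannot be told apart from at least 1 of the treatments. Nothing in the sources used here says that the 3 libraries of a group came from separate cultures, so p-values measure the spread between these libraries, which may be technical. In bulk RNA, fewer cells of a kind and less RNA per cell cannot be told apart.

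Between 14435925 and 28424805 fragments fell on genes in each library. All 8 luminal breast markers examined were present (summed level 1152 to 3305 FPKM per library), while basal markers summed to at most 1.77 FPKM, blood markers to at most 1.05 and endothelial markers to at most 0.357. Of 4 fibroblast markers only COL1A1 was present, which carried the summed level of 9.35 to 32.9 FPKM. MT1X, a metallothionein that binds cadmium, was higher with cadmium than in the control by 8.72 on the log2 scale (adjusted p = 0.00557, limma), in the direction of the label, and was also higher with DES alone by 4.75 (adjusted p = 0.00228).

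All 10 are protein-coding genes, with spans as the deposited table gives them on GRCh38. The ATG8 genes are MAP1LC3B (ENSG00000140941) at chr16:87383995-87404779, GABARAPL1 (ENSG00000139112) at chr12:10212458-10223130 and GABARAPL2 (ENSG00000034713) at chr16:75566351-75577881. The genes of membrane formation are ULK1 (ENSG00000177169) at chr12:131894651-131923167, ATG14 (ENSG00000126775) at chr14:55366392-55411858, ATG9A (ENSG00000198925) at chr2:219219380-219229717, ATG2A (ENSG00000110046) at chr11:64894546-64917248 and WIPI1 (ENSG00000070540) at chr17:68420948-68457513. The receptor and the factor are NBR1 (ENSG00000188554) at chr17:43170481-43211689 and TFEB (ENSG00000112561) at chr6:41683978-41736259.

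Promoter windows from RefSeq (GRCh38.p14, 250 bases before to 50 bases after an annotated start) were found for all 10 genes, 13 windows in all. Those of GABARAPL1, MAP1LC3B and WIPI1 are shown because the results turn on these genes, and that of ATG14 because it and GABARAPL1 held the motif matches. Each is written 5′ to 3′ on the strand of the gene, with motif matches in capitals. The windows lie at chr12:10212627-10212926 (plus strand), chr16:87392086-87392385 (plus strand), chr17:68457447-68457746 (minus strand) and chr14:55411781-55412080 (minus strand), in this order.
GABARAPL1: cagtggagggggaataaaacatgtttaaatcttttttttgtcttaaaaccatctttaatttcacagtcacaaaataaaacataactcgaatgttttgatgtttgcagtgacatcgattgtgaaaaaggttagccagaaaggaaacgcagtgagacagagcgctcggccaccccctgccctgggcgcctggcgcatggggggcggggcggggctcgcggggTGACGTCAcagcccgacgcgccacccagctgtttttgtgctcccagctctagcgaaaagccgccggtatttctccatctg
MAP1LC3B: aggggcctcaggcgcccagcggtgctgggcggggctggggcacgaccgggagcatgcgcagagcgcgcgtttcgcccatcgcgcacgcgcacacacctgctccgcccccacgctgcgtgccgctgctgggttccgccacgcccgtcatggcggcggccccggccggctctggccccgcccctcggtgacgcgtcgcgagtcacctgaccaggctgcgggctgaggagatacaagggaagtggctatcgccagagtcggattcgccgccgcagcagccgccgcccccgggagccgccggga
WIPI1: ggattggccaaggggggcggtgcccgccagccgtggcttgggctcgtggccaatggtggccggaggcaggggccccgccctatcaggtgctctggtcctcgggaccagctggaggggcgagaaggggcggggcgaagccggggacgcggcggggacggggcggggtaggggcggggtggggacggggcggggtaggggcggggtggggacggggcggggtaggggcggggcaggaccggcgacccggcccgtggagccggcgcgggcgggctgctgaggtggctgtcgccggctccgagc
ATG14: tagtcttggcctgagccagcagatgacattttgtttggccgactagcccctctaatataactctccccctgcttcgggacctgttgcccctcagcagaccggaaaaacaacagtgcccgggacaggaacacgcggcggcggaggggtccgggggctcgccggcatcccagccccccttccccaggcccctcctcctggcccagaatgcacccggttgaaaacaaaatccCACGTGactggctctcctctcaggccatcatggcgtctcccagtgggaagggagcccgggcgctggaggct

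The capitals in the GABARAPL1 window are TGACGTCA, the letters of the cAMP response element, with the first base at position -30 from the start. The capitals in the ATG14 window are CACGTG, the core of an E-box of the kind that TFEB binds, with the first base at -21. Over both strands, TGACGTCA was in 1.85% of 35116 windows of the same length and CACGTG in 7.26%. The 13 windows held no match to TGANTCA (the AP-1 site, in 7.71% of all windows), GTAAACA (the FOXO core, 3.42%), TNAAGGTCA (the element of the estrogen-related receptors, 0.951%) or its core AAGGTCA (3.92%), which overlaps it. A match describes letters and not a bound site, and a missing match says nothing of regions outside these windows. The GC content of the windows was 51.7% in GABARAPL1, the lowest of the 13, and 79.7% in WIPI1, the highest, against a median of 58.7% over all windows.

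Of the 10 genes, GABARAPL1 had the widest spread of group means, with a mean in DES 23.1-fold that of the control. MAP1LC3B followed, with a mean in DES with calcium 4.67-fold that of the control, and WIPI1, with a mean in calcium 4.34-fold that of DES. The highest group mean was 2.67-fold the lowest for ULK1, 2.29-fold for ATG9A, 2.20-fold for ATG2A, 1.81-fold for GABARAPL2, 1.73-fold for ATG14, 1.68-fold for NBR1 and 1.60-fold for TFEB. When the 7 groups were ordered by mean for each gene, the libraries of 52 of 60 pairs of neighbouring groups overlapped. The 8 pairs that did not were GSK4716 over control for MAP1LC3B, DES with calcium over calcium for GABARAPL1 and GABARAPL2, cadmium over GSK4716 and GSK4716 over control for GABARAPL1, GSK4716 over cadmium for GABARAPL2, DES with calcium over DES for WIPI1, and calcium over control for ULK1. This count was not made over all genes, so it only describes the order of the levels.

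**Figure D1:**
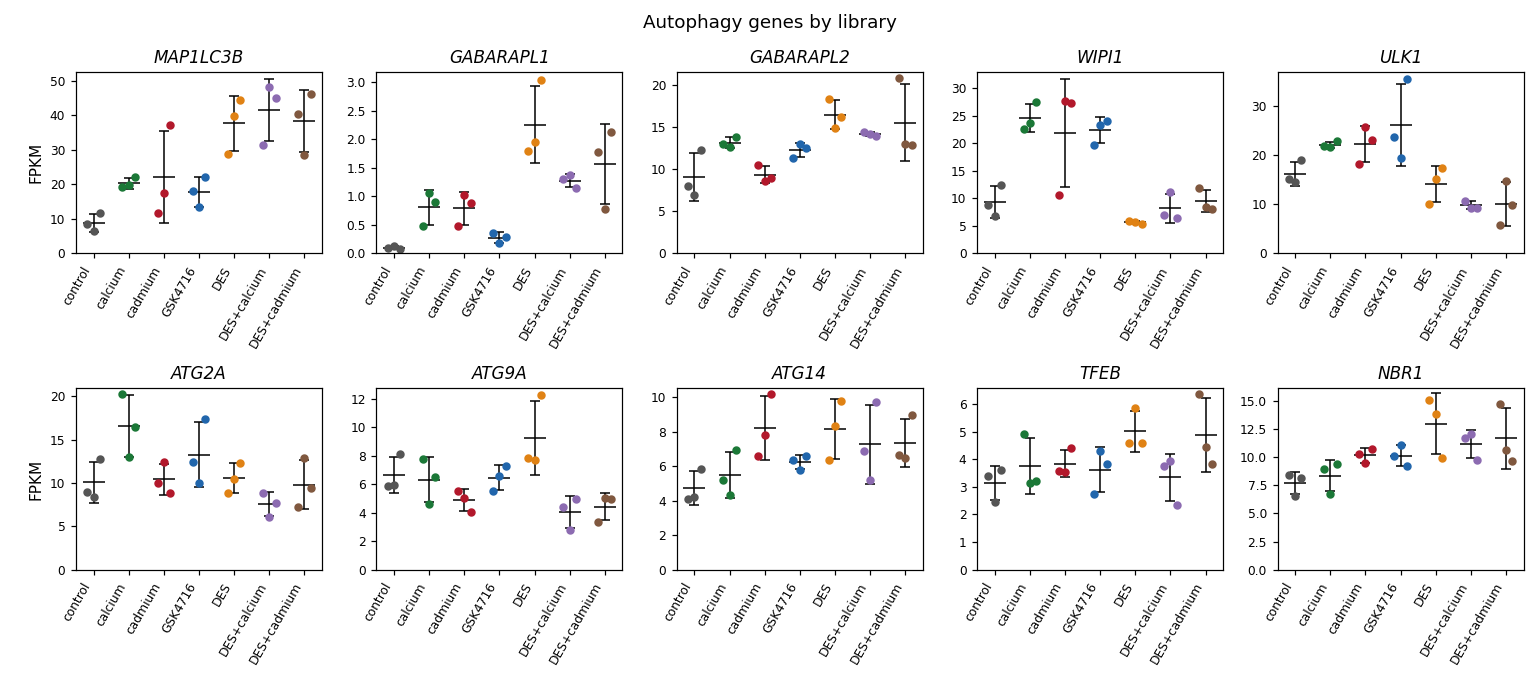
Level of each autophagy gene (FPKM, vertical axis, from 0 in each panel) in the 21 libraries by group. Points are libraries, horizontal bars group means and whiskers 1 SD (n = 3); GABARAPL1 runs from about the detection floor in the control to 3.03 FPKM with DES, while WIPI1 is lowest with DES, at 5.41 to 5.91 FPKM.

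With calcium, 3 of the 10 genes rose over the control: WIPI1, MAP1LC3B and GABARAPL1. None was called lower. Over all genes tested, 4.6% were called higher, 2.53% lower and 7.12% in either direction (limma, Benjamini-Hochberg adjusted p under 0.05). MAP1LC3B and WIPI1 are also in a list that the study itself chose on these libraries as raised by the treatments, so their direction is not independent evidence. WIPI1 was at 8.79, 6.75 and 12.4 FPKM in the control libraries and at 22.6, 23.7 and 27.5 FPKM with calcium. All 3 calcium libraries lay above all 3 controls, and the log2 fold change, on log2(FPKM + 0.1) as throughout, was 1.43 ± 0.23 (SE, adjusted p = 0.0252, limma). MAP1LC3B was at 8.56, 6.41 and 11.7 FPKM in the control and at 19.1, 19.7 and 22.0 FPKM with calcium. The groups again did not overlap, with a log2 fold change of 1.22 ± 0.22 (SE, adjusted p = 0.0325, limma).

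GABARAPL1 was near the floor in the control, at 0.0909, 0.127 and 0.0741 FPKM, which came from 12, 11 and 5 fragments. With calcium it was at 0.471, 1.06 and 0.896 FPKM, from 43, 76 and 82 fragments. Each calcium library was above each control library, and the log2 fold change was 2.15 ± 0.35 (SE, adjusted p = 0.0258, limma). The pseudocount of 0.1 FPKM is about as large as the control level, so the log2 fold change understates the ratio of the means, 0.811 ± 0.305 FPKM with calcium against 0.0974 ± 0.0273 in the control (SD, n = 3). GABARAPL1 was among the genes tested only through the groups with DES: its mean was 1.01 FPKM over all groups, but 0.454 FPKM over control and calcium and 0.494 FPKM over the 4 groups without DES, under the minimum of 0.5. Without that minimum its calcium difference was not called (adjusted p = 0.0922, limma), which left 2 members called with calcium, where 2.06% of all genes were called.

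ULK1, ATG2A and GABARAPL2 also had calcium libraries that lay above every control library, but missed the threshold. Their log2 fold changes were 0.46 (adjusted p = 0.0991) for ULK1, 0.72 (adjusted p = 0.128) for ATG2A and 0.57 (adjusted p = 0.190) for GABARAPL2, by limma. ULK1 was at 15.1, 14.5 and 19.0 FPKM in the control and 21.8, 21.6 and 22.8 FPKM with calcium. ATG2A was at 9.0, 8.41 and 12.8 FPKM in the control and 20.3, 13.0 and 16.5 FPKM with calcium, the highest group mean of this gene. In all, 6 of 10 genes had calcium libraries above the control without overlap, and none below it, against 16% and 13.6% of all genes tested, and the median over the 10 was 0.51 against -0.01 over all genes. ATG14 (0.20), TFEB (0.24), NBR1 (0.11) and ATG9A (-0.09) had overlapping libraries. The calcium calls rested on the full set of libraries: leaving out control library 1 or 2, or calcium library 2 or 3, left 0 of them, leaving out calcium library 1 left 1, and leaving out control library 3 gave 4. The share of all genes called was not recorded for fits without 1 library, here or below.

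With cadmium none of the 10 genes passed the test, against 0.15% of all genes. With all 7 groups in one fit GABARAPL1 (adjusted p = 0.00477), WIPI1 (0.0348) and MAP1LC3B (0.0415) passed, where 6.99% of all genes did, and by limma-voom GABARAPL1 (0.0341), where 3.28% did. At an unadjusted p under 0.05, 6 of the 10 were higher and 0 lower, against 13.6% and 12.4% of all genes. GABARAPL1 was at 0.471, 1.02 and 0.879 FPKM, above every control library, with a log2 fold change of 2.13 ± 0.36 (SE, adjusted p = 0.0621, limma). That estimate is close to the 2.15 of calcium, and the control libraries are the same in both. MAP1LC3B was spread over a wide range with cadmium, at 11.8, 17.5 and 37.1 FPKM, with a log2 fold change of 1.18 ± 0.45 (SE, adjusted p = 0.168). WIPI1 was at 10.6, 27.6 and 27.3 FPKM with cadmium, so that the first library lay within the control range and the other two were at the level of the calcium libraries (log2 fold change 1.14 ± 0.43, SE, adjusted p = 0.168, limma).

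ATG14 was at 4.12, 4.24 and 5.87 FPKM in the control and at 6.61, 7.83 and 10.2 FPKM with cadmium, its highest group mean. The libraries did not overlap, and the log2 fold change of 0.78 ± 0.23 (SE) had an adjusted p of 0.117 by limma. NBR1 lay above the control in each cadmium library as well (10.3, 9.44 and 10.7 against 8.43, 6.58 and 8.14 FPKM), and ATG9A lay below it (5.55, 5.04 and 4.02 against 5.91, 5.91 and 8.11 FPKM). Their log2 fold changes were 0.40 (adjusted p = 0.165) and -0.44 (adjusted p = 0.230). Of the 10 genes, 4 were higher and 1 was lower without overlap, against 17.7% and 16.7% of all genes. Cadmium library 1 was low for MAP1LC3B, WIPI1 and GABARAPL1. Without it, WIPI1 (1.60, adjusted p = 0.0355) and GABARAPL1 (2.42, adjusted p = 0.0262) passed the test. The share of all genes called in that fit was not recorded.

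With GSK4716, the agonist, no member passed the test and no gene of all those tested did (0% called by limma, while 7.68% were higher and 8.69% lower at an unadjusted p under 0.05). At that unadjusted level 6 of the 10 members were higher and 0 lower. WIPI1 was at 19.7, 23.2 and 24.1 FPKM, close to its calcium level and above every control library, with a log2 fold change of 1.29 ± 0.23 (SE, adjusted p = 0.142, limma). MAP1LC3B was at 17.9, 13.5 and 22.0 FPKM, also above every control (1.01 ± 0.27, SE, adjusted p = 0.200, limma). GABARAPL1 stayed low, at 0.360, 0.179 and 0.288 FPKM from 26, 13 and 28 fragments, and its libraries still did not overlap with the control (0.91 ± 0.28, SE, adjusted p = 0.223, limma). ULK1 reached 23.6, 19.4 and 35.5 FPKM, its highest group mean, with a log2 fold change of 0.65 (adjusted p = 0.268). When the recovered fragments were tested by limma-voom, WIPI1 was the 1 member to pass (1.32, adjusted p = 0.0439), where 0.538% of all genes passed.

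With DES alone, 5 of the 10 genes rose over the control: GABARAPL1, MAP1LC3B, GABARAPL2, ATG14 and NBR1. None was called lower. Many genes were called in this comparison, 16.7% of all those tested upward, 12.9% downward and 29.6% in either direction. GABARAPL1 was at 1.79, 1.95 and 3.03 FPKM with DES, from 165, 149 and 205 fragments. The lowest of these libraries was over 10 times the highest control, and the log2 fold change was 3.55 ± 0.36 (SE, adjusted p = 0.00137, limma). MAP1LC3B was at 28.8, 39.7 and 44.2 FPKM with DES, all above the highest library of the calcium and GSK4716 groups, and its log2 fold change over the control was 2.09 ± 0.26 (SE, adjusted p = 0.0027, limma). Both stayed under the threshold in every alternative in which they were tested, with a highest adjusted p of 0.0114 for GABARAPL1 and 0.0175 for MAP1LC3B.

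The third ATG8 protein gene, GABARAPL2, was at 8.03, 6.96 and 12.3 FPKM in the control and at 18.4, 14.9 and 16.2 FPKM with DES. The libraries did not overlap, and its log2 fold change was 0.89 ± 0.23 (SE, adjusted p = 0.0289, limma). NBR1 was at 15.1, 13.9 and 9.93 FPKM with DES, each above the highest control of 8.43 (0.73 ± 0.21, SE, adjusted p = 0.0372, limma). ATG14 was at 6.34, 8.34 and 9.77 FPKM with DES, each above the highest control of 5.87 (0.77 ± 0.23, SE, adjusted p = 0.0440, limma). These 3 calls were less firm: of the 14 alternatives, 8 kept GABARAPL2, 8 kept ATG14 and 6 kept NBR1. Leaving out control library 1, control library 2 or DES library 2 left 2 calls, leaving out DES library 1 or 3 left 3, and leaving out control library 3 left 4.

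For WIPI1 the DES libraries lay below the control. It was at 5.91, 5.68 and 5.41 FPKM, each below the lowest control library of 6.75, with a log2 fold change of -0.66 ± 0.23 (SE, adjusted p = 0.0718, limma), which passed the test only with scaling by total fragments (-0.84, adjusted p = 0.0296). The DES libraries of WIPI1 lay close together (5.67 ± 0.251 FPKM, SD, n = 3). TFEB was higher without overlap, at 4.58, 5.87 and 4.58 FPKM against 3.37, 2.44 and 3.61 FPKM in the control (0.67 ± 0.22, SE, adjusted p = 0.0584, limma), and limma-voom called it (0.68, adjusted p = 0.0415), 1 of the 6 members it called, where 32.5% of all genes were called. ULK1 (10.0, 15.1 and 17.3 FPKM, log2 fold change -0.22), ATG2A (8.85, 10.5 and 12.3 FPKM, 0.08) and ATG9A (7.85, 7.71 and 12.3 FPKM, 0.46) overlapped with the control. Over the 10 genes, 6 were higher and 1 lower without overlap, against 25.9% and 22.9% of all genes, and the median was 0.70 against 0.05 over all genes.

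**Figure D2:**
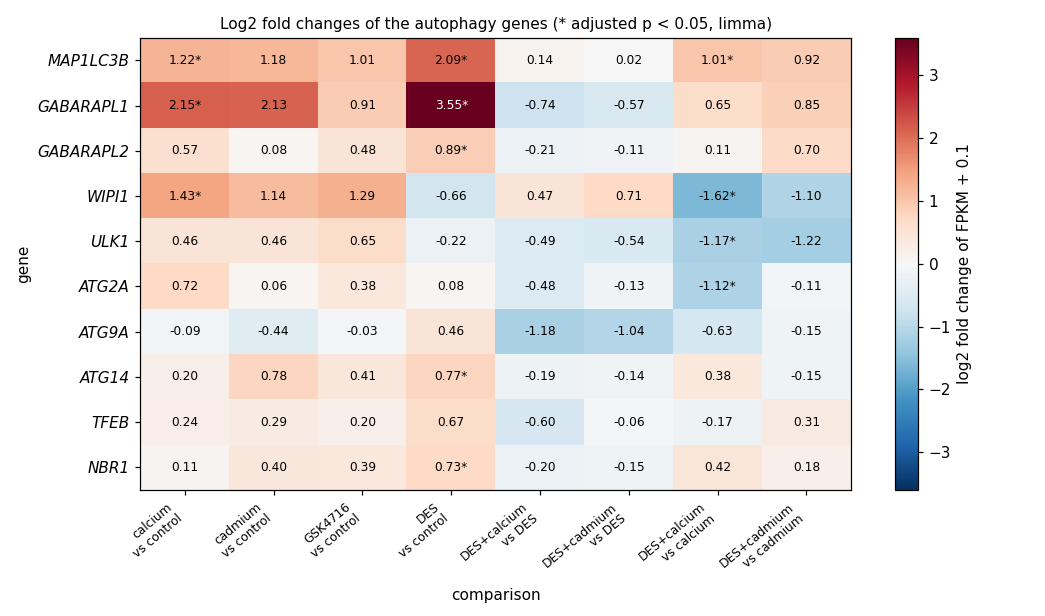
Log2 fold changes of FPKM + 0.1 for the 10 genes (rows) in the 8 pairwise comparisons (columns), with a star where the limma adjusted p is under 0.05. GABARAPL1 has the deepest red, 3.55 with DES against control, and WIPI1 the lowest value, -1.62 for DES with calcium against calcium; scaling by total fragments turns the sign of 6 of the unstarred values, all between -0.20 and -0.01 under it.

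When calcium was added to cells that already had DES, none of the 10 genes passed the test against DES alone (0.136% of all genes did). At an unadjusted p under 0.05, 2 of the 10 were lower and 0 higher, against 8.71% and 4.51% of all genes. MAP1LC3B was at 31.3, 48.0 and 44.9 FPKM, overlapping with DES alone (28.8, 39.7 and 44.2 FPKM) and in 2 of the 3 libraries above its highest library, with a log2 difference of 0.14 and a 95% interval from -0.43 to 0.71 (limma, adjusted p = 0.817). GABARAPL1 was at 1.30, 1.38 and 1.14 FPKM, each below the lowest DES library (-0.74, interval -1.44 to -0.05, adjusted p = 0.355). WIPI1 was at 7.02, 11.1 and 6.35 FPKM, each above the highest DES library of 5.91 (0.47, interval -0.10 to 1.05, adjusted p = 0.438). The lowest estimate was that of ATG9A, at 4.39, 2.81 and 4.95 FPKM against 7.85, 7.71 and 12.3 FPKM with DES alone, without overlap (-1.18 ± 0.29, SE, interval -1.89 to -0.47, adjusted p = 0.224). In a fit of all 7 groups ATG9A passed (adjusted p = 0.0365), where 1.13% of all genes were called. Of the 10, 5 were lower and 1 was higher without overlap, against 12.1% and 7.84% of all genes.

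For cadmium on top of DES, 0 of the 10 genes were called (0.266% of all genes). At an unadjusted p under 0.05, 1 member was higher and 1 lower, against 2.36% and 8.03% of all genes. Both comparisons share the DES libraries. ATG9A was at 3.32, 5.01 and 4.95 FPKM, below every DES library (-1.04 ± 0.30, SE, adjusted p = 0.287, limma; adjusted p = 0.0303 with all 7 groups in the fit, where 4.11% of all genes were called). WIPI1 was at 11.8, 8.44 and 8.13 FPKM, above every DES library (0.71 ± 0.23, SE, adjusted p = 0.359, limma). MAP1LC3B was at 40.2, 28.5 and 46.0 FPKM, a log2 difference of 0.02 (interval -0.63 to 0.67), and GABARAPL1 was at 1.78, 0.777 and 2.13 FPKM, a difference of -0.57 (interval -1.67 to 0.52). These intervals leave room for changes of either sign. The library size behind the FPKM of DES with cadmium library 1 was 0.693 times its fragments on genes, against 0.862 to 1.15 in the other libraries, and the part of this in the results was not tested. Without that library the log2 difference was -0.85 for ATG9A (adjusted p = 0.367), 0.54 for WIPI1 (adjusted p = 0.425) and -0.03 for MAP1LC3B (adjusted p = 0.977), by limma. In these 2 comparisons the deviations of libraries with equal replicate numbers correlated by over 0.1. For cadmium added to DES, the libraries did not all correlate best with their own number. With the number as a block, 0 members and 0% of all genes were called in both, so this count says nothing about the members.

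Setting DES with calcium against calcium alone, MAP1LC3B was higher and WIPI1, ULK1 and ATG2A were lower, while 18.5% of all genes were called higher, 16.5% lower and 35.1% in either direction. For WIPI1, the 3 libraries with DES and calcium (7.02, 11.1 and 6.35 FPKM) lay far under the 3 with calcium (22.6, 23.7 and 27.5 FPKM), a log2 difference of -1.62 ± 0.23 (SE, adjusted p = 0.0043, limma). ULK1 was at 10.8, 9.34 and 9.27 FPKM with both and at 21.8, 21.6 and 22.8 FPKM with calcium, with little spread in either group (-1.17 ± 0.13, SE, adjusted p = 0.00233, limma). ATG2A was at 8.81, 6.11 and 7.74 FPKM with both (-1.12 ± 0.22, SE, adjusted p = 0.0110, limma). MAP1LC3B was higher with both than with calcium alone (1.01 ± 0.19, SE, adjusted p = 0.00930, limma). All 4 were without overlap and passed in all 14 alternatives, with highest adjusted p values of 0.0364 for MAP1LC3B, 0.0210 for WIPI1, 0.0130 for ULK1 and 0.0362 for ATG2A. GABARAPL1 (0.65), GABARAPL2 (0.11) and NBR1 (0.42) were higher without overlap but not called, and the sign for GABARAPL2 turned to -0.08 with scaling by total fragments. Of the 10, 4 were higher and 3 lower without overlap, against 25.7% and 25.1% of all genes.

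For cadmium the same contrast called none of the 10 genes, with 9.89% of all genes called. At an unadjusted p under 0.05, 1 member was higher and 2 lower, against 15.4% and 17.2% of all genes. ULK1 was at 5.81, 14.7 and 9.84 FPKM with DES and cadmium, each below the cadmium libraries of 18.3, 25.7 and 23.0 FPKM (-1.22 ± 0.36, SE, adjusted p = 0.0753, limma). WIPI1 had a log2 difference of -1.10 ± 0.42 (SE, adjusted p = 0.126) with overlap, since cadmium library 1 (10.6 FPKM) lay under the highest library with both (11.8 FPKM). MAP1LC3B had a difference of 0.92 ± 0.44 (SE, adjusted p = 0.195) and GABARAPL2 of 0.70 ± 0.26 (SE, adjusted p = 0.123), by limma. With all 7 groups in the fit, all 4 of these genes passed: ULK1 (adjusted p = 0.0032), WIPI1 (0.0110), GABARAPL2 (0.0130) and MAP1LC3B (0.0391). In that fit 37.2% of all genes were called. DES with cadmium library 1, whose library size stood apart, held the lowest ULK1 value and the highest WIPI1 value of its group. Without it the log2 difference was -0.87 for ULK1 (adjusted p = 0.0904), -1.26 for WIPI1 (adjusted p = 0.136), 0.87 for MAP1LC3B (adjusted p = 0.302) and 0.47 for GABARAPL2 (adjusted p = 0.156), by limma.

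**Figure D3:**
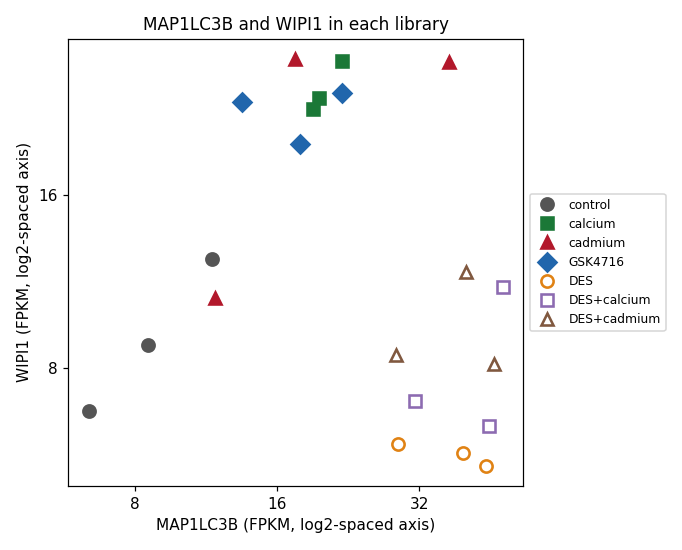
WIPI1 against MAP1LC3B in each library (FPKM, both axes spaced by log2; 1 symbol per library, open symbols for groups with DES). The 9 libraries with DES have MAP1LC3B from 28.5 to 48.0 FPKM and WIPI1 from 5.41 to 11.8 FPKM, whereas calcium, GSK4716 and cadmium libraries other than cadmium library 1 have WIPI1 from 19.7 to 27.6 FPKM.

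With calcium both genes in this plot were higher than in the control, and with DES alone MAP1LC3B was higher and WIPI1 was not called. Over the 21 libraries Pearson's r of log2(FPKM + 0.1) between members was highest for GABARAPL1 with MAP1LC3B (0.869) and next for ATG2A with ULK1 (0.769), and lowest for NBR1 with ULK1 (-0.500). These are descriptions over libraries that share treatments and scaling.

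Whether the effect of calcium differed with DES was tested as an interaction, the calcium difference with DES minus that without. GABARAPL1 passed, with -2.90 ± 0.50 (SE, adjusted p = 0.0153, limma), from a rise of 2.15 without DES and a difference of -0.74 with it. It passed in all 19 alternatives that tested it (highest adjusted p 0.0431), but its size depended on the processing: the estimate was -1.21 with a pseudocount of 1 and -3.66 by limma-voom, and that of the calcium rise 0.71 and 2.91. Its starting level was about the floor in the control and 2.25 ± 0.676 FPKM (SD, n = 3) with DES. Of all genes, 3.63% were called. The 10 estimates, which rest on the same 4 groups, were all below 0, and 8 were lower and 0 higher at an unadjusted p under 0.05, against 12.3% and 7.63% of all genes. The next were ATG2A (-1.19, adjusted p = 0.0634, but 0.0467 with the replicate block and 0.0419 by limma-voom) and ULK1 (-0.95, adjusted p = 0.0780). MAP1LC3B (-1.08, adjusted p = 0.103) and WIPI1 (-0.96, adjusted p = 0.147) missed the threshold, so their calcium effect was not shown to differ with DES. The same interaction for cadmium called 0 of the 10 (1.18% of all genes), with 3 lower and 0 higher at an unadjusted p under 0.05 against 11.6% and 6.91% of all genes, and with GABARAPL1 at -2.70 ± 0.61 (SE, adjusted p = 0.0599, limma).

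Some of these genes share sequence or exons with others. The library preparation is described in more than 1 way as to strand, so fragments over exons that overlap between strands are uncertain. WIPI1 shares 829 exonic bases (24.4% of its own) with ARSG on the opposite strand, which had group means from 5.65 FPKM with calcium to 10.2 FPKM with DES and cadmium, where WIPI1 was at 24.6 and 9.45 FPKM. ATG14 shares 1047 bases (20.8%) with FBXO34 on the opposite strand, which was at 7.60 FPKM in the control and 5.25 FPKM with DES. ATG9A shares 1833 bases (38.8%) with a gene on the same strand. MAP1LC3B has a near-identical copy, MAP1LC3B2, which was at 0.659 ± 0.438 FPKM in the control and 3.28 ± 1.66 FPKM with DES (SD, n = 3), higher by 2.19 on the log2 scale (adjusted p = 0.0168, limma). Reads from the pair may be shared, and the part of this in either gene was not tested. Of the other ATG8 genes, GABARAP was at 1.85 ± 0.782 FPKM in the control and 4.99 ± 2.52 FPKM with DES (log2 fold change 1.32, adjusted p = 0.0915), MAP1LC3A had at most 12 fragments in any library, and MAP1LC3C and GABARAPL3 were at or near 0. GABARAP overlapped with the control and was not called with calcium (0.65), cadmium (-0.43) or GSK4716 (-0.36).

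SQSTM1, the other main cargo receptor beside NBR1, had higher levels than any member, at 50.3, 32.1 and 99.5 FPKM in the control. It was at 160, 128 and 86.5 FPKM with calcium, at 83.5, 129 and 276 FPKM with cadmium and at 122, 113 and 146 FPKM with GSK4716. Only the GSK4716 libraries did not overlap with the control, and none of these 3 differences passed (log2 fold changes 1.15, 1.40 and 1.22 with adjusted p of 0.190, 0.187 and 0.238, limma). With DES, SQSTM1 also overlapped with the control (0.48, adjusted p = 0.373, limma). TFE3, the closest relative of TFEB examined, rose with DES from 16.3 ± 5.13 to 32.0 ± 1.51 FPKM (SD, n = 3), by 1.01 on the log2 scale (adjusted p = 0.0161, limma). With calcium TFE3 was above the control without overlap but not called (0.71, adjusted p = 0.122, limma). With cadmium (0.61) and GSK4716 (0.46) it overlapped with the control.

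Beyond the 10, 100 other autophagy and lysosome genes were grouped by role, of which 97 passed the filter. These lists too were chosen with earlier results of these data known. With calcium, 10 rose and 1 fell, against 4.6% and 2.53% of all genes, with a median of 0.20 over the 97 against -0.01 over all genes. Leaving out 1 library at a time gave from 0 calls among the 97 (without control library 1 or 2) to 11 (without control library 3), and the replicate block gave 1 (1.77% of all genes). The risers included OPTN, a cargo receptor (2.89), ATG9B, the homologue of ATG9A (2.80), FOXO1, a transcription factor for autophagy genes (1.53), VMP1, a membrane protein of autophagosome formation (1.36), PLEKHM1, an adaptor for lysosome fusion (1.23), UVRAG of the lipid kinase complex (0.57), and among the lysosomal enzymes CTSL (1.41), NEU1 (1.16) and CTSA (1.06). DDIT4, an inhibitor of the TOR pathway, fell by 0.97 on the log2 scale. With cadmium 1 of the 97 was called (0.15% of all genes), and the count was unstable, at 12 without cadmium library 1, 0 without any other library, 16 with all 7 groups in the fit (6.99% of all genes) and 9 by limma-voom (3.28%). With GSK4716 none was called, as for all genes.

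With DES, 20 of the 97 rose and 8 fell, near the 16.7% and 12.9% of all genes, and the median was 0.24 against 0.05. Leaving out 1 library at a time gave 12 to 30 calls, with 12 without control library 1, 14 without control library 2 and 17 without DES library 2. Those that rose included FOXO1 (2.14), ATG9B (2.30), VMP1 (1.18), OPTN (1.77), WDR45, a relative of WIPI1 (1.26), NRBF2 of the lipid kinase complex (1.32), ATG101 of the ULK1 complex (1.13), ATG3, an enzyme of the ATG8 conjugation (0.94), and BNIP3, a mitochondrial receptor (0.81). In the TOR and AMPK list 2 rose and 4 fell, with FNIP2 (-1.62), FLCN (1.58) and AKT1S1 (-1.29) the largest of these changes. RUBCN (-0.71), an inhibitor of the lipid kinase complex, fell. Between DES with calcium and calcium, 13 were higher and 15 lower, against 18.5% and 16.5% of all genes. These 28 calls went to 18 without the filter, where 14.8% of all genes were called in place of 35.1%. They went to 14 to 21 on leaving out 1 library, with 14 without DES with calcium library 1, 17 without calcium library 2 and 18 without calcium library 3. The lower genes included OPTN (-1.33), ATG2B, the homologue of ATG2A (-1.02), and the lysosomal genes CLCN7 (-1.34), CTSA (-1.14) and ATP6V0D1 (-1.09). ATG3 (1.28), BNIP3 (1.27) and CALCOCO2, a cargo receptor (0.96), were higher. Between DES with cadmium and cadmium, 3 of the 97 were called, with 9.89% of all genes called: 1 was higher (ATG101, 1.06) and 2 were lower (FNIP2, -1.86, and PRKAA1, a catalytic subunit of AMPK, -1.14). None of the 97 was called for calcium or cadmium added to DES.

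**Figure D4:**
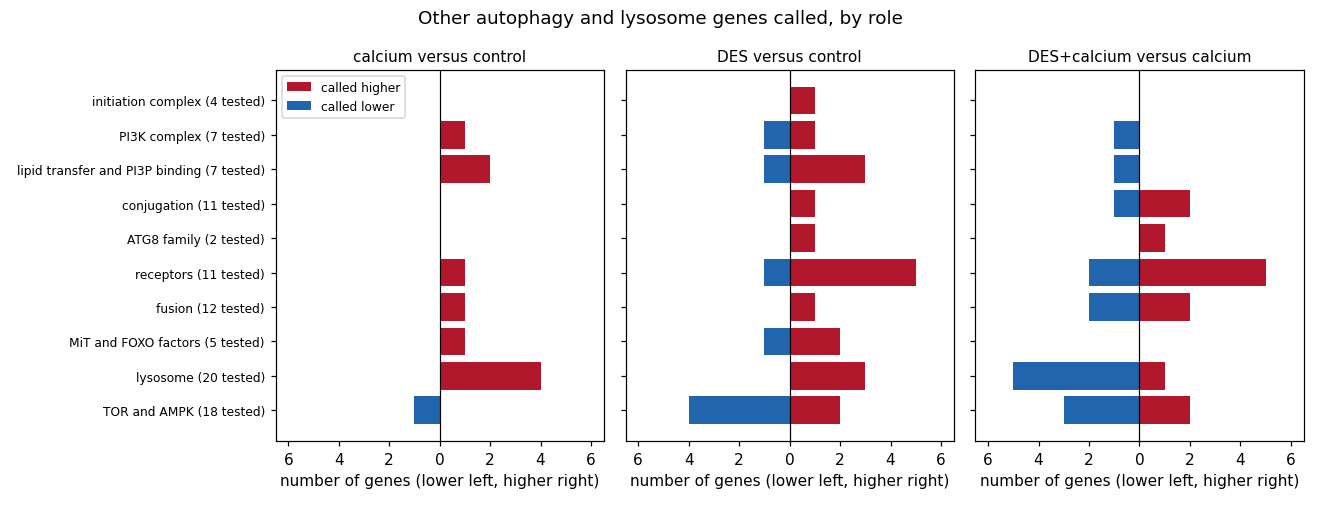
Number of other autophagy and lysosome genes called higher (to the right) or lower (to the left) in each role list, for calcium against control, DES against control and DES with calcium against calcium (limma, adjusted p under 0.05). The lysosome list has 4 higher and 0 lower of 20 with calcium (4.6% and 2.53% of all genes), and 1 higher and 5 lower for DES with calcium against calcium (18.5% and 16.5% of all genes).

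Among 12235 genes with a mean of at least 1 FPKM, the patterns most like that of GABARAPL1 over the 21 libraries, by Pearson's r of log2(FPKM + 0.1), were those of GADD45B (0.938), SLC25A25 (0.925), PPP1R15A (0.922), ADM (0.918) and TUFT1 (0.913). For MAP1LC3B the nearest was also PPP1R15A (0.932), a stress-induced regulatory subunit of protein phosphatase 1. The nearest was DUSP3 for WIPI1 (0.952), SBF1 for ULK1 (0.924), ZNF706 for ATG14 (0.911), TMED4 for GABARAPL2 (0.899), RIOX1 for ATG9A (0.857), POLB for NBR1 (0.855), C7orf43 for ATG2A (0.851) and NUDT17 for TFEB (0.789). These values describe likeness over libraries that share treatments, depth and scaling, and the genes were picked as the highest of many.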

How the data were processed

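The deposited table, made by the authors, holds FPKM for each gene in each of the 21 libraries, beside gene lengths. The submitters' processing notes name HISAT2 2.0.5, featureCounts 1.5.0-p3 and GRCh38.p14. The paper's methods name DESeq2 for normalizing the read counts, which was not run here. FPKM times gene length was a whole multiple of 1 step per library for 100% of values (tolerance 0.02 fragments), which gave the fragments. The library size in FPKM was 0.862 to 1.15 times the fragments on genes, except in DES with cadmium library 1 (0.693 times). Among genes with a mean of at least 20 fragments, no more than 1.15% had the same number of fragments in any of the 210 pairs of libraries.

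limma 3.58.1 in R 4.3.3 (lmFit, eBayes with a trend) was run on log2(FPKM + 0.1) for 14686 genes and each fit held the libraries of the compared groups alone. Interactions used 4 groups. P-values are two-sided and Benjamini-Hochberg adjusted over all genes tested, with a threshold of 0.05. Called means under that threshold. The fit was tested on simulated data. Deviations of libraries with equal replicate numbers correlated by 0.132, 0.103 and 0.280 for DES with calcium against DES and by 0.472, 0.121 and 0.313 for DES with cadmium against DES, all over 0.1, and not so elsewhere. Of these 2 comparisons, only in DES with calcium against DES did every library correlate best with its own number. Alternatives were a pseudocount of 1, median-ratio scaling, no filter on low values, a filter at a mean FPKM of 2, scaling by total fragments on genes, limma-voom (run on the recovered fragments), a replicate block, a fit of all 7 groups, and leaving out each library. The members and lists were chosen with earlier results of these data known. Members were named in every comparison. From each role list up to 3 called genes with the largest change and a mean FPKM of at least 1 were eligible, and SQSTM1, GABARAP, MAP1LC3A and TFE3 were named in any case. ARSG, FBXO34, MAP1LC3B2, MAP1LC3C and GABARAPL3 were named for shared exons or sequence. Tables were made with pandas 2.3.3 and numpy 2.4.6 and plots with matplotlib 3.10.9, under Python 3.11.15. Overlapping exons were read from GENCODE. The values of 1 gene of the role lists are not reported here.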

Additional observations from a re-analysis of the deposited data

Results flagged for a closer look

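The effect of calcium differed between cells with and without DES, by the limma interaction, for GABARAPL1 (-2.90, adjusted p = 0.0153), and among the other autophagy genes for OPTN (-3.11, adjusted p = 0.00311), ATG9B (-2.94, adjusted p = 0.0175) and FOXO1 (-2.04, adjusted p = 0.0172). These 3 of the 97 other genes stand beside 3.63% of all genes called. OPTN was at 0.933, 0.571 and 0.542 FPKM in the control, 4.51, 6.45 and 5.91 FPKM with calcium, 2.64, 2.03 and 2.95 FPKM with DES, and 2.01, 2.39 and 2.05 FPKM with both. ATG9B was at 0.494, 0.415 and 0.199 FPKM in the control, 1.96, 3.53 and 4.06 FPKM with calcium, 1.54, 1.78 and 3.45 FPKM with DES, and 1.86, 1.77 and 2.14 FPKM with both. In both genes, as in GABARAPL1, the calcium libraries lay above the control while those with DES and calcium lay among those with DES alone or below them.

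The effect of cadmium differed with DES for FOXO1 (-2.58, adjusted p = 0.0334) and NRBF2 (-1.49, adjusted p = 0.0428), by limma, the 2 calls among the 97 other genes in this interaction, where 1.18% of all genes were called. Without the filter on low values 0 of the 97 were called, with 0.142% of all genes called. Leaving out 1 library at a time gave 0 to 3, with 0 without any control library, cadmium library 2 or 3, or DES library 2 or 3. FOXO1 was at 2.27, 1.80 and 2.27 FPKM in the control, 3.22, 7.21 and 5.62 FPKM with cadmium, 7.10, 13.1 and 9.53 FPKM with DES, and 2.80, 3.46 and 5.29 FPKM with both. NRBF2 was at 7.73, 6.18 and 7.64 FPKM in the control, 8.21, 9.15 and 13.6 FPKM with cadmium, 17.7, 19.0 and 17.5 FPKM with DES, and 9.45, 7.66 and 9.85 FPKM with both. The interactions share control and DES libraries.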

How the results depend on the processing

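Of 13 member calls, 7 stayed under the threshold in every alternative that tested them: GABARAPL1 and MAP1LC3B with DES, MAP1LC3B, WIPI1, ULK1 and ATG2A for DES with calcium against calcium, and GABARAPL1 in the calcium interaction. GABARAPL1 was not tested under a mean FPKM of at least 2, as its mean is about 1. Of 87 member differences not called, 69 were called under no alternative. Scaling by total fragments moved the all-gene median to -0.13 for calcium, -0.12 for DES, -0.13 for DES with calcium against DES, -0.24 for DES with cadmium against DES, -0.20 for DES with calcium against calcium, -0.39 for DES with cadmium against cadmium and -0.23 for the cadmium interaction. The genes called lower and higher went to 562 and 546 (371 and 675 as deposited) with calcium, to 2539 and 1861 (1893 and 2447) with DES, to 3191 and 2109 (2426 and 2722) for DES with calcium against calcium and to 1043 and 359 (754 and 699) for DES with cadmium against cadmium. This scaling turned the sign of NBR1 with calcium (-0.011), ATG2A with DES (-0.10), MAP1LC3B for cadmium added to DES (-0.20), GABARAPL2 for DES with calcium against calcium (-0.085), and TFEB (-0.019) and NBR1 (-0.16) for DES with cadmium against cadmium, none of them called.

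For the calcium comparison, equal replicate numbers did not pair the libraries. With the replicate block 0 of the 3 member calls and 1 of the 11 other calls passed (WIPI1 at adjusted p = 0.0507). Of all genes 1.77% were called with the block and 7.12% without it. In the calcium interaction the block gave 2 members (ATG2A added) and 6 others, where 4.17% of all genes were called. In the cadmium comparison and DES with cadmium against cadmium it gave 0 others (0.0204% and 0% of all genes). With all 7 groups in one fit, the members called were 3 with cadmium, 1 for calcium added to DES, 1 for cadmium added to DES, 4 for DES with cadmium against cadmium and 1 in the cadmium interaction, and the other genes called were 16, 1, 3, 30 and 4. The share of all genes called was then 6.99%, 1.13%, 4.11%, 37.2% and 5.46%. With limma-voom the members called were 1 with cadmium, 1 with GSK4716, 6 with DES (TFEB added) and 2 in the calcium interaction (3.28%, 0.538%, 32.5% and 4.42% of all genes). The others it called were 9 with cadmium, 5 for DES with cadmium against cadmium (12.3% of all genes) and 6 in the calcium interaction. Without the filter, 2 members were called with calcium (GABARAPL1 lost) and 2 with DES (2.06% and 8.17% of all genes). Of the others, 6 were called with calcium, 0 with cadmium and 18 for DES with calcium against calcium (2.06%, 0.0212% and 14.8%). For DES with cadmium against cadmium 0 others were called (0.0586%), and 0 in the cadmium interaction (0.142%). A mean FPKM of at least 2 left 0 members in the calcium interaction, where 5.19% of all genes were called. It called 3 others with cadmium, 5 for DES with cadmium against cadmium and 5 in the calcium interaction. The shares of all genes were 1.56%, 13.7% and 5.19%. A pseudocount of 1 called 3 others with cadmium and 5 in the calcium interaction (1.01% and 4.24% of all genes). Scaling by total fragments called 6 others for DES with cadmium against cadmium (9.55% of all genes). Why these counts moved was not tested.

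Leaving out 1 library at a time, the members called ranged from 0 to 4 with calcium, 0 to 2 with cadmium, 2 to 4 with DES, 1 to 3 in the calcium interaction and 0 to 1 in the cadmium interaction. The other genes called ranged from 0 to 11 with calcium, 0 to 12 with cadmium, 12 to 30 with DES, 14 to 21 for DES with calcium against calcium, 0 to 4 for DES with cadmium against cadmium, 3 to 8 in the calcium interaction and 0 to 3 in the cadmium interaction. For these fits the share of all genes called was not recorded, so whether the counts moved with it is not known. Uncalled members that changed sign were, with calcium, ATG9A (-0.26 to 0.11) and NBR1 (-0.0024 to 0.25), with cadmium GABARAPL2 (-0.093 to 0.32) and ATG2A (-0.069 to 0.25), with GSK4716 ATG9A (-0.12 to 0.11), and with DES ULK1 (-0.38 to 0.0063) and ATG2A (-0.040 to 0.26). For calcium added to DES they were MAP1LC3B (-0.040 to 0.33) and ATG14 (-0.42 to 0.028), and for cadmium added to DES MAP1LC3B (-0.16 to 0.22), GABARAPL2 (-0.34 to 0.0025), ATG2A (-0.34 to 0.072), ATG14 (-0.31 to 0.0022) and TFEB (-0.27 to 0.093). For DES with calcium against calcium it was TFEB (-0.30 to 0.058), for DES with cadmium against cadmium ATG2A (-0.33 to 0.089), ATG9A (-0.28 to 0.045), ATG14 (-0.30 to 0.017) and NBR1 (-0.0028 to 0.30), and in the cadmium interaction ATG2A (-0.40 to 0.011). The 5 to 12 fragments of GABARAPL1 in each control library limit the precision of its fold.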
